A study of Homo sapiens with 26 samples.

Results

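LoVo cells carrying the PIK3CA mutation H1047R were compared with wild-type LoVo cells after both had been kept in conditioned medium of senescent cells. LoVo is an established human colorectal adenocarcinoma line. The comparison rests on 4 RNA sequencing libraries, 2 of each line, out of 18 in the same expression table and 26 in the series, and on all 18165 genes of that table. The mutant line was derived from the wild-type line with a lentiviral vector, per the series description, which numbers its clones for a palbociclib experiment and does not say which clone was placed in conditioned medium. In a difference between the lines, the mutation, the vector and the choice of clone cannot be told apart, and their parts were not tested. Both lines grew in DMEM with fetal bovine serum. The conditioned medium was taken from cells made senescent with palbociclib, an inhibitor of the cell cycle kinases CDK4 and CDK6. Which line made the medium, and how long the cells stayed in it, are not stated. Further groups of 2 libraries each serve as references: E545K, the other PIK3CA mutant line, in the same medium, and both the wild type and H1047R in DMSO, the solvent control, and in 0.5 µM palbociclib, given for 72 hours. The labels also speak of control cells collected at 48 hours without naming the libraries. Nothing says that the 2 libraries of a group came from separate cultures, so each p-value measures the spread between libraries, which may be technical.

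PIK3CA encodes the catalytic subunit p110α of phosphoinositide 3-kinase. The enzyme makes a membrane lipid that recruits the kinase AKT, which in turn restrains FOXO transcription factors and promotes growth. H1047R lies in the kinase domain and E545K in the helical domain, and both raise the activity of the enzyme. Senescent cells stop dividing and release cytokines, chemokines, proteases and growth factors, together called the senescence-associated secretory phenotype, and conditioned medium carries these factors to other cells. In an intestinal epithelial cell, such signals meet the interleukin 1, NF-kB, interferon and EGF receptor pathways.

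The 4 libraries were alike in their general features. The values are FPKM, fragment numbers divided by transcript length and by the total mapped in the library, and they summed to between 462799 and 470204 per library. Read numbers are not known, so no counting error can be given. Ribosomal protein genes made up 21.4% to 21.5% of the FPKM in the wild type and 21.9% to 22.4% in H1047R. Replicates correlated at 0.998 across genes on the log2 scale in both groups. The 12 markers of colorectal epithelium fixed for this comparison summed to between 8570 and 8980 FPKM in the wild type and to between 8670 and 9030 FPKM in H1047R, most of it KRT8 and KRT18. KRT20 and CDX1, markers of mature colonic epithelium, were near 0 in both lines. Markers of fibroblasts, endothelium and leukocytes, of which 15 of 17 were in the table, summed to between 55.4 and 65.0 FPKM in the wild type and between 54.3 and 59.8 FPKM in H1047R. DCN and CDH5 were listed at 0 in both H1047R libraries. As in any bulk sample, fewer cells of a kind and less RNA per cell cannot be told apart.

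PIK3CA RNA itself did not separate the lines. It stood at 6.20 and 5.93 FPKM in the wild type and at 6.79 and 5.75 FPKM in H1047R, and the values overlapped (log2 difference 0.04, SE 0.11, adjusted p = 0.916 in limma). In E545K it was 15.15 and 16.25 FPKM. Values per gene do not separate transcripts of the mutant from those of the endogenous copy, so they do not check the genotype label of H1047R. The genes HBE1, MAGEA6 and OR51B5, described next, were high in all wild-type libraries and near 0 in all H1047R libraries of every medium, so the labels split these libraries by line in the same way in each medium.

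Of the 12607 genes that reached 1 FPKM in at least 2 of the 18 libraries, 1056 differed between H1047R and the wild type in conditioned medium at an adjusted p below 0.05, which is 8.38% of the genes tested. The test was limma on log2(FPKM + 1), and every log2 difference given here is on that scale, which understates changes of low genes. Each SE given here comes from a spread pooled over the 9 groups of the table, not from the libraries compared alone. In H1047R 386 genes were higher, 3.06% of those tested, and 670 were lower, 5.31%. The median difference over all genes tested was 0.00. Without any single one of the 4 libraries, 150 to 203 genes were higher and 282 to 480 lower. The plot of difference against level shows that 964 of the called genes differed by less than 1 on the log2 scale, and that 10 were lower and 3 higher by at least 2.

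**Figure D1:**
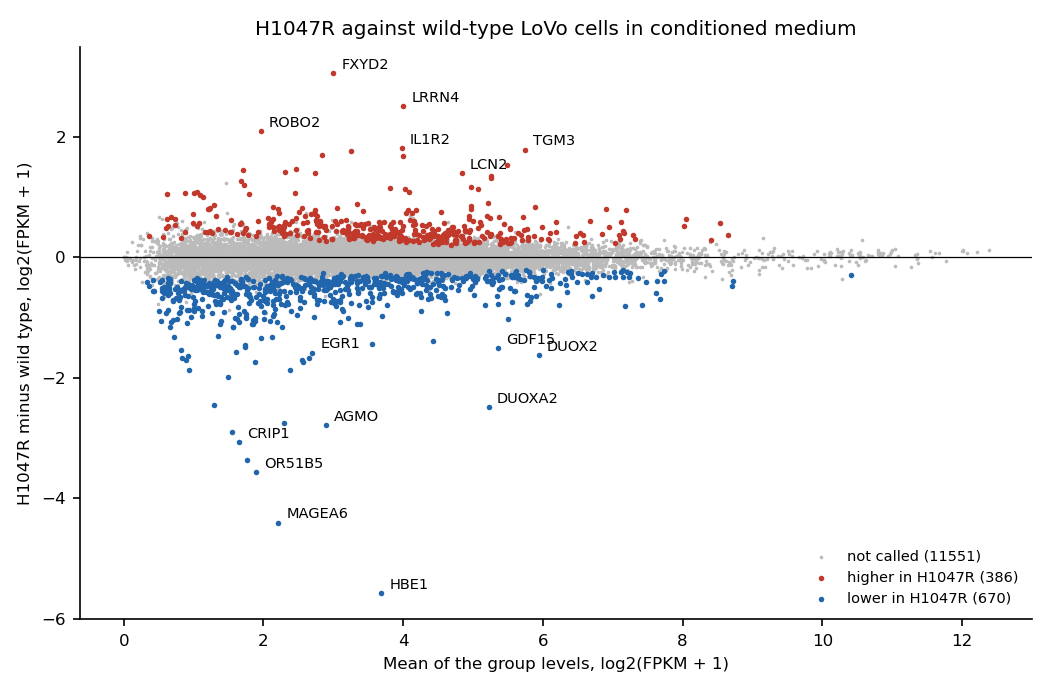
Difference between H1047R and wild-type LoVo cells in conditioned medium (y axis, log2(FPKM + 1)) against the mean level of the gene in both groups (x axis, log2(FPKM + 1)), one point per gene tested. Red points mark the 386 genes higher and blue points the 670 genes lower in H1047R at an adjusted p below 0.05, and the lowest point, HBE1, lies at -5.57.

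FXYD2, LRRN4 and ROBO2 had the widest rises in H1047R. FXYD2, a regulatory subunit of the sodium-potassium pump, was at 2.32 and 1.26 FPKM in the wild type and at 20.11 and 23.85 FPKM in H1047R. Both H1047R libraries lay far above both wild-type libraries (12.3-fold in the means, log2 difference 3.06, SE 0.14, adjusted p = 3.01e-09 in limma). LRRN4, a leucine-rich repeat membrane protein, stood at 5.81 and 5.66 FPKM against 36.14 and 38.42 FPKM, a 6.5-fold rise in H1047R (log2 difference 2.51, SE 0.09). ROBO2, a receptor for the guidance cue SLIT, was at 0.83 and 0.93 FPKM in the wild type and 7.00 and 7.06 FPKM in H1047R (log2 difference 2.10, SE 0.11). IL1R2, the decoy receptor that binds interleukin 1 without signalling, rose from 7.78 and 7.04 FPKM to 27.92 and 29.12 FPKM, 3.85-fold (log2 difference 1.81, SE 0.11). TGM3, a transglutaminase of epithelia, was at 26.49 and 29.16 FPKM against 95.20 and 101.71 FPKM (log2 difference 1.79, SE 0.10). In each of these genes the groups were separated by several times the distance between replicates.

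CCL20, a chemokine that draws in cells bearing CCR6, was at 6.35 and 2.32 FPKM in the wild type and at 17.52 and 14.25 FPKM in H1047R. Its wild-type libraries lay further apart than those of FXYD2, LRRN4, ROBO2, IL1R2 and TGM3. Its pooled error was also wider than theirs (log2 difference 1.77, SE 0.25, adjusted p = 0.00042 in limma). PHGR1, a small protein of mature gut epithelium, went from 25.41 and 25.29 FPKM to 70.77 and 79.37 FPKM (log2 difference 1.53, SE 0.13). LCN2, an antibacterial protein that binds siderophores, went from 16.16 and 16.99 FPKM to 44.89 and 45.98 FPKM (log2 difference 1.40, SE 0.10). PIGR, which carries IgA across epithelium, and COL16A1, a collagen chain, were higher by 1.42 and 1.47. The annexin ANXA8 was at 7.18 and 8.60 FPKM against 27.27 and 27.73 FPKM, and its near-identical copy ANXA8L1 was higher by 1.70. Reads of this pair cannot be assigned with certainty, and ANXA8L1 did not pass with a pseudocount of 0.1 (adjusted p = 0.06).

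The lower side was led by genes whose RNA was nearly absent from H1047R. HBE1, the embryonic epsilon globin, stood at 86.12 and 89.28 FPKM in the wild type and at 0.96 and 0.77 FPKM in H1047R (log2 difference -5.57, SE 0.14, adjusted p = 1.47e-12 in limma). MAGEA6, a cancer-testis antigen, was at 20.97 and 19.75 FPKM against a listed 0 and 0.02 FPKM. OR51B5, an olfactory receptor gene next to the globins, was at 11.51 and 12.00 FPKM against 0.08 FPKM in both H1047R libraries. CRIP1, a small LIM domain protein, was at 8.15 and 7.99 FPKM against 0.09 FPKM in both. These 4 genes separated the lines in an all-or-none manner. MAGEA6 belongs to a family of close copies, as do the alpha globin HBA2 (log2 difference -2.74, SE 0.49) and the pair DAZ2 and DAZ4 (-3.37 and -2.89), so their values are uncertain in how reads were shared.

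Others fell without being lost. AGMO, an enzyme that cleaves ether lipids, went from 18.22 and 18.65 FPKM to 1.72 and 1.96 FPKM, a 10.0-fold difference (log2 difference -2.78, SE 0.12). DUOX2 is an oxidase that releases hydrogen peroxide at the gut surface, and DUOXA2 is the factor it needs for maturation. DUOXA2 was at 79.04 and 96.42 FPKM in the wild type and 13.89 and 15.64 FPKM in H1047R (log2 difference -2.49, SE 0.15). DUOX2 was at 97.28 and 116.40 FPKM against 33.68 and 34.19 FPKM (log2 difference -1.62, SE 0.11). Enzyme and partner were therefore both lower, with no overlap between groups. GALNT2, which starts mucin-type O-glycans, was 5.14-fold lower and the LIM protein FHL1 5.65-fold lower. The alarmin IL33 was at 9.42 and 10.07 FPKM against 2.57 and 1.93 FPKM (log2 difference -1.73, SE 0.12).

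Some called genes lay side by side. Along the RefSeq map of GRCh38.p14, 43 of the called genes formed 12 runs of at least 3 neighbouring tested genes called in the same direction, out of 12580 tested genes with a position. The longest run held 6 genes, HBG2, HBE1, OR51B4, OR51B5, OR51I1 and OR52D1, on chromosome 11 from 5253188 to 5505652, a cluster of beta-like globins and olfactory receptors. In H1047R the log2 differences of these 6 ran from -5.57 to -1.15. In both H1047R libraries HBG2 and OR52D1 were listed at 0. OR51B5 overlaps its neighbours, so its reads may be shared with them. The DUOX2, DUOXA2 and DUOXA1 run lay on chromosome 15 from 45092650 to 45129879, and DUOXA1 overlaps DUOXA2.

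Interleukin 1 genes formed another run. IL1A, IL1B, IL37 and IL36G lie on chromosome 2 between 112773925 and 112985658, with log2 differences from -1.01 to -0.39. IL1A was at 12.21 and 12.11 FPKM against 5.66 and 5.42 FPKM, and IL1B at 23.65 and 26.61 FPKM against 13.20 and 12.88 FPKM (log2 differences -1.01 and -0.89). IL37 did not pass without any single one of the 4 libraries, nor IL36G without wild-type replicate 2 (adjusted p = 0.336) or H1047R replicate 2 (adjusted p = 0.294). The single run of higher genes was STAT5A, STAT3, CAVIN1 and ATP6V0A1 on chromosome 17 from 42287439 to 42522579, with differences of 0.32 to 0.59. STAT5A, a transcription factor of cytokine signalling, was at 11.61 and 11.74 FPKM against 17.80 and 18.30 FPKM, and STAT3 at 20.28 and 20.07 FPKM against 25.37 and 25.64 FPKM. ATP6V0A1 did not pass without any single one of the 4 libraries (adjusted p 0.0533 to 0.0766), nor CAVIN1 without H1047R replicate 2 (0.0529). Over whole autosomes the median difference lay between -0.046 and 0.046.

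Gene lists fixed for pathways and cell states were read as counts beside the shares above of 3.06% higher and 5.31% lower. The list plot gives every tested member. No test was made of a list as a whole, and the lists were drawn up with earlier results of these data known.

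**Figure D2:**
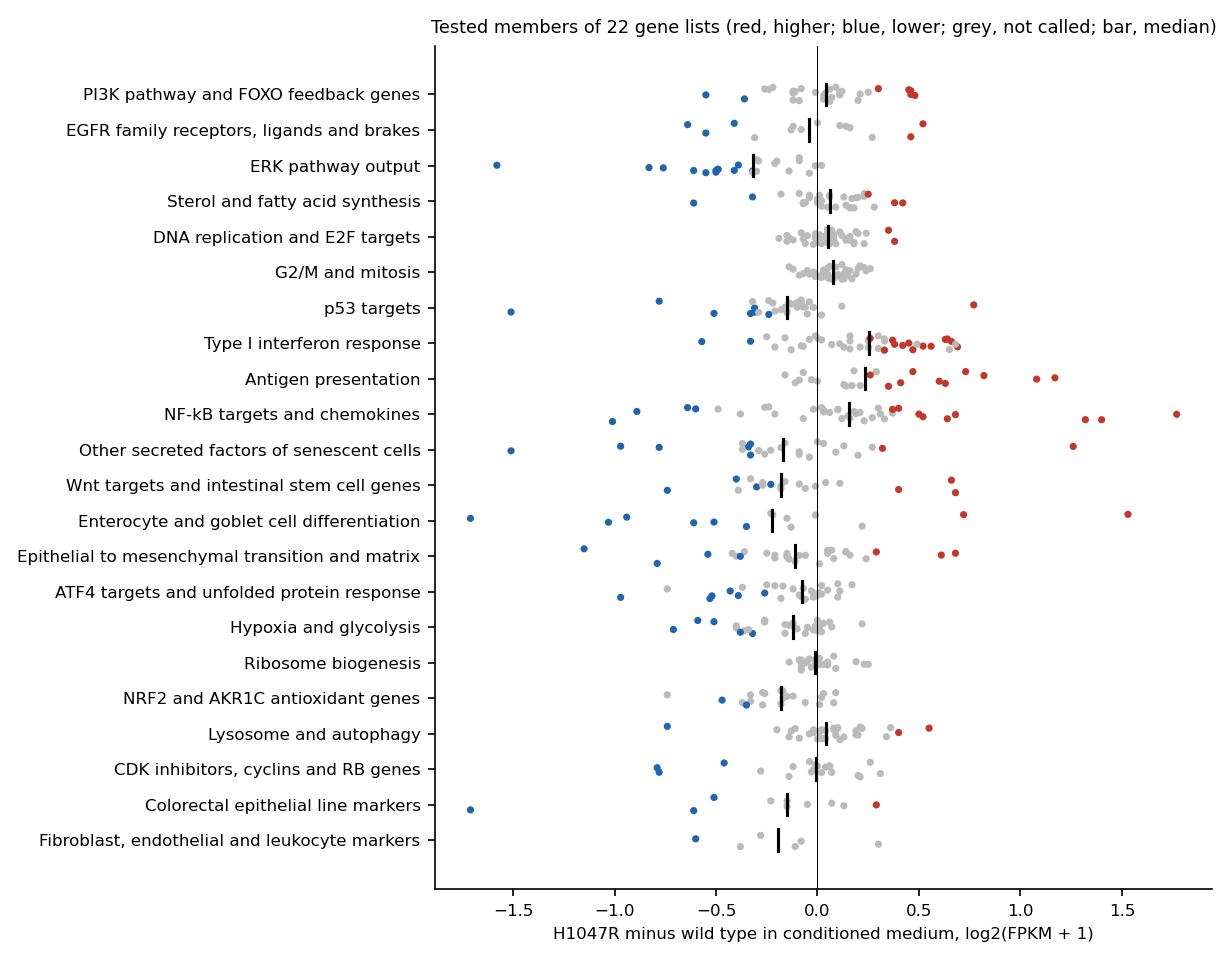
H1047R minus wild type in conditioned medium (x axis, log2(FPKM + 1)) for the tested members of 22 gene lists (y axis), one point per gene. Red marks members called higher, blue members called lower, grey members not called, and the black bar the median, which is lowest for the ERK pathway output list at -0.32 and highest for the type I interferon response list at 0.26.

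Of 31 tested members of the list of PI3K subunits, receptors and FOXO feedback genes, 5 were higher and 2 lower, with a median of 0.04. IGF1R, the receptor for insulin-like growth factor 1, was at 8.94 and 8.65 FPKM against 12.04 and 13.29 FPKM (log2 difference 0.48), and did not pass without H1047R replicate 2 (adjusted p = 0.0611). ERBB3, the receptor that couples strongly to PI3K and is a FOXO target, was at 19.81 and 21.12 FPKM against 28.77 and 28.34 FPKM (0.46, SE 0.08, adjusted p = 0.00207 in limma). The subunit gene PIK3R3 was called at 0.46, but did not pass without any single one of the 4 libraries. Counts of the list without 1 library were 2 to 3 higher and 0 to 2 lower, and the drop in the lower count occurred without wild-type replicate 2 and without either H1047R replicate.

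Many genes that report signalling through ERK were lower in H1047R. ERK is the kinase at the end of the RAS pathway, and its immediate targets include transcription factors and inhibitors that feed back on it. Of 24 tested members, 12 were lower and 0 higher in limma, or 16 and 0 at an unadjusted p below 0.05, and the median was -0.32. The lower count was not particular to this medium or line. In DMSO 15 members were lower and 4 higher in H1047R, beside 17.5% and 49.9% of all genes. In palbociclib 12 were lower and 5 higher, beside 24.1% and 38.5%. E545K in conditioned medium had 11 lower and 4 higher than the same wild-type libraries, beside 15.8% and 18.1%. EGR1, an immediate early transcription factor, was at 10.49 and 9.95 FPKM in the wild type and at 3.03 and 2.51 FPKM in H1047R (3.69-fold lower, log2 difference -1.58, SE 0.11, adjusted p = 3.27e-07 in limma). FOS, another immediate early gene, was at 2.82 and 3.47 FPKM against 1.34 and 1.31 FPKM (-0.83). DUSP4, a phosphatase that switches ERK off, was at 11.35 and 11.58 FPKM against 6.09 and 6.61 FPKM (-0.76). FOSB was lower (-0.61) but did not pass without wild-type replicate 2 (adjusted p = 0.0783) or H1047R replicate 1 (0.0836). Among the smaller changes were the feedback inhibitors SPRY4 and SPRY2 (-0.55 and -0.50), the ETS factor ETV4 (-0.49) and the Ephrin receptors EPHA4 and EPHA2 (-0.50 and -0.32). Without wild-type replicate 1 the count was 11 lower, and without wild-type replicate 2, H1047R replicate 1 and H1047R replicate 2 it was 6, 7 and 8, with 0 higher in each.

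The upstream receptor system moved in both directions. Of 14 tested EGF receptor family members, ligands and brakes, 3 were lower and 2 higher. ERRFI1, which binds and inhibits EGF receptors, was at 128.60 and 128.34 FPKM against 82.81 and 81.77 FPKM (log2 difference -0.64, SE 0.08). The ligand HBEGF was at 3.93 and 4.36 FPKM against 2.72 and 2.31 FPKM (-0.55), and the ligand AREG was also lower (-0.41). BTC, another ligand, was higher by 0.52, and did not pass without wild-type replicate 2 (adjusted p = 0.136) or H1047R replicate 1 (0.153), which left 1 higher member in each case.

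The promoter of EGR1 is shown because EGR1 led the ERK list. The 250 bases before its start in RefSeq (GRCh38.p14, chr5:138465229-138465478, plus strand) hold a pair of CArG boxes, the sequence bound by serum response factor, which capitals mark. They begin 105 and 83 bases before the start.
EGR1: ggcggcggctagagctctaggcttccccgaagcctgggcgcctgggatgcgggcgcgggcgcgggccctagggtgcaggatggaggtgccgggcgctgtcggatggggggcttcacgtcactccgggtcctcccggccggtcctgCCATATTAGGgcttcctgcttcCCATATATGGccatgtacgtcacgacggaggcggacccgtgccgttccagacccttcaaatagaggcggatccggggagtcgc
A CArG box, searched on both strands, was found in 312 of 27305 RefSeq promoters of this length, 1.14%. Among the 16 ERK list members with a promoter in the table, EGR1 was the 1 that held it within these 250 bases. Sequence further upstream was not searched, so the other members may hold a box there. The match describes the letters and says nothing on what was bound in these cells.

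Of 22 tested antigen presentation genes, 10 were higher and 0 lower in limma, or 11 and 0 at an unadjusted p below 0.05, with a median of 0.24. The widest changes were in the class II pathway, by which peptides from outside the cell are shown to helper T cells. CD74, the invariant chain that guards the peptide groove, was at 20.60 and 19.19 FPKM against 43.97 and 48.40 FPKM (2.32-fold, log2 difference 1.17, SE 0.14, adjusted p = 7.13e-05 in limma). HLA-DRB1, a class II beta chain, was at 11.63 and 9.75 FPKM against 22.87 and 24.45 FPKM (1.08, SE 0.13). HLA-DRA, its alpha chain, was at 26.44 and 23.31 FPKM against 37.22 and 39.31 FPKM (0.60). HLA-DMA, which loads peptide, was called at 0.82, and did not pass without wild-type replicate 1 (adjusted p = 0.136), H1047R replicate 1 (0.0661) or H1047R replicate 2 (0.0805). PSMB10, a subunit of the immunoproteasome, was called at 0.73 and did not pass without wild-type replicate 2 (0.0641). The master regulator of class II genes, CIITA, was at 2.03 and 2.02 FPKM against 1.74 and 1.87 FPKM and was not called (-0.11, adjusted p = 0.57). The list count was 6 without wild-type replicate 1 or either H1047R replicate. The direction of the list differed between media. In DMSO 6 members were higher and 13 lower in H1047R, beside 49.9% and 17.5% of all genes. In palbociclib 18 were higher and 0 lower, beside 38.5% and 24.1%. E545K in conditioned medium had 18 higher and 0 lower than the same wild-type libraries, beside 18.1% and 15.8%. HLA genes resemble each other, so part of their reads may be exchanged.

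Promoters of class II genes as a rule carry an inverted CCAAT element, the Y box, bound by the factor NF-Y. The 250 bases before the start of CD74 (chr5:150412911-150413160, minus strand), HLA-DRB1 (chr6:32589849-32590098, minus strand) and HLA-DMA (chr6:32953098-32953347, minus strand) are shown for the 3 class II genes with the widest differences, with the core CCAAT or its complement ATTGG in capitals.
CD74: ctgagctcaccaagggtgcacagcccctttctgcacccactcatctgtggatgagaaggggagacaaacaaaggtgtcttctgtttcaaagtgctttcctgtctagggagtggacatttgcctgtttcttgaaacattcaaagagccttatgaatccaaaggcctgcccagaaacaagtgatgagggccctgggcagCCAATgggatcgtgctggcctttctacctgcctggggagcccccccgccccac
HLA-DRB1: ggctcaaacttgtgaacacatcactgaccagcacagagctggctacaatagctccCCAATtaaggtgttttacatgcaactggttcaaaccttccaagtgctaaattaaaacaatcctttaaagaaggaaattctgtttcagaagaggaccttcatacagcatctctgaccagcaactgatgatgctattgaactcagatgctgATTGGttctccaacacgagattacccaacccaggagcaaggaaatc
HLA-DMA: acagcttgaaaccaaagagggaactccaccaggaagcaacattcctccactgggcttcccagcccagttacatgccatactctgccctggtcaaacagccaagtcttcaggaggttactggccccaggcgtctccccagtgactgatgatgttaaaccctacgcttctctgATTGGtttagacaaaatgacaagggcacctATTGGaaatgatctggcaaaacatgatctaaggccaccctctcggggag
Either form of the core was present in 33.0% of all RefSeq promoters of this length. It was present in 12 of the 17 antigen presentation members tested that had a promoter in the table, 70.6%, and in 4 of the 8 called ones. HLA-DPA1, another class II gene called higher, held neither form in its 250 bases. The stretch marked in CD74 and the first in HLA-DRB1 read CCAAT, not the inverted form. The capitals therefore mark matches to the letters and do not identify the Y box.

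Of 42 tested members of the type I interferon list, which hold antiviral effectors and their regulators, 13 were higher and 2 lower, with a median of 0.26. The higher count was not particular to this medium or line. In DMSO 25 were higher and 11 lower in H1047R, beside 49.9% and 17.5% of all genes. In palbociclib 27 were higher and 7 lower, beside 38.5% and 24.1%. E545K in conditioned medium had 39 higher and 3 lower than the same wild-type libraries, beside 18.1% and 15.8%. MX1, a GTPase that blocks viruses, was at 29.35 and 29.10 FPKM against 46.85 and 46.48 FPKM (log2 difference 0.66, SE 0.07, adjusted p = 3.23e-05 in limma). RSAD2, or viperin, was at 2.53 and 2.48 FPKM against 4.63 and 4.31 FPKM (0.64, SE 0.10). IFIT3, which binds viral RNA complexes, was called at 0.69 and did not pass without wild-type replicate 1 (adjusted p = 0.0646) or H1047R replicate 1 (0.0961). MX2 was called at 0.63 and did not pass without H1047R replicate 2 (0.0593). IFITM1, a membrane protein that blocks viral entry, went the other way, from 89.81 and 106.39 FPKM to 65.45 and 65.25 FPKM (-0.57). Without wild-type replicates 1 and 2 and H1047R replicates 1 and 2 in turn, 6, 8, 5 and 6 members were higher and 1, 0, 1 and 1 lower.

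NF-kB targets and chemokines split. Of 38 tested members, 9 were higher and 4 lower, with a median of 0.16. Beside CCL20 and LCN2, the higher members included LTB, a TNF family cytokine, at 23.60 and 22.69 FPKM against 57.58 and 60.96 FPKM (log2 difference 1.32, SE 0.11). The lower members were IL1A, IL1B, the chemokine CXCL11 (-0.64) and the elastase inhibitor PI3 (-0.60). PI3 was at 251.27 and 229.63 FPKM against 156.66 and 159.98 FPKM, and its neighbours SEMG1 and SLPI formed with it a run of lower genes on chromosome 20. The 2 interleukin 1 agonist genes were thus lower and the decoy receptor IL1R2 higher in the same libraries. The higher count was 6 without wild-type replicate 2.

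Among other factors that senescent cells secrete, 6 of 24 tested were lower and 2 higher, with a median of -0.17. GDF15, a stress cytokine and p53 target, was at 58.85 and 77.62 FPKM against 20.25 and 26.16 FPKM (2.94-fold lower, log2 difference -1.51, SE 0.13). IGFBP2, a binding protein for insulin-like growth factors, was at 4.95 and 5.27 FPKM against 1.86 and 2.42 FPKM (-0.97), and IGFBP7 was also lower (-0.78). MMP7, a matrix protease of epithelial cells, was at 1.33 and 0.78 FPKM against 5.05 and 2.93 FPKM (1.26, SE 0.18). Without wild-type replicate 2 or either H1047R replicate, 3 members were lower, and the higher count was 1 except without H1047R replicate 1.

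The p53 list held 7 lower and 1 higher of 30 tested, with a median of -0.15. CDKN1A, the p21 inhibitor of cyclin-dependent kinases, was at 45.45 and 60.02 FPKM against 29.55 and 30.44 FPKM (log2 difference -0.78, SE 0.11, adjusted p = 0.00038 in limma). GADD45A was called at -0.51 and did not pass without wild-type replicate 2 (adjusted p = 0.078) or H1047R replicate 2 (0.061). TP53I3, an oxidoreductase induced by p53, was at 8.00 and 6.41 FPKM against 12.60 and 13.33 FPKM (0.77). The lower count was 4 without wild-type replicate 1 or H1047R replicate 2, and 3 without wild-type replicate 2 or H1047R replicate 1. CDKN2A, which encodes the p16 inhibitor of CDK4, was at 11.22 and 14.10 FPKM against 7.02 and 6.73 FPKM (-0.79, SE 0.10).

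Few proliferation genes were called between the lines in conditioned medium. Of 42 tested members of the G2/M and mitosis list, 0 were called in limma and 3 were higher at an unadjusted p below 0.05, with a median of 0.07. When the H1047R libraries in DMSO and palbociclib were left out of the fit, a choice made after seeing the data, 4 were called higher, and 1 was called without wild-type replicate 1. MKI67 was at 56.66 and 62.46 FPKM against 65.37 and 61.70 FPKM. Of 49 DNA replication and E2F targets, 2 were higher and 0 lower in limma, or 6 and 0 at an unadjusted p below 0.05. MCM5, part of the replicative helicase, was one of the higher members and did not pass without any single one of the 4 libraries. Nor did it pass in limma after median-centring (adjusted p = 0.0639). Of 25 ribosome biogenesis genes, 0 were called in limma, with 2 higher at an unadjusted p below 0.05 and 2 called higher in the fit without those H1047R libraries. The sterol and fatty acid list had 3 higher and 2 lower of 32. Without H1047R replicate 2, 1 member of that list was higher, and without either wild-type replicate or H1047R replicate 2, 0 were lower.

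Of 30 ATF4 and unfolded protein response genes, 6 were lower and 0 higher in limma, or 10 and 0 at an unadjusted p below 0.05. CTH, which makes cysteine from cystathionine, was at 16.53 and 17.89 FPKM against 7.87 and 8.77 FPKM (log2 difference -0.97, SE 0.12). MTHFD2, a mitochondrial folate enzyme, was at 132.76 and 133.92 FPKM against 93.86 and 90.46 FPKM (-0.53). Without any single one of the 4 libraries, 2 members were called. Of 30 hypoxia and glycolysis genes 5 were lower and 0 higher in limma, or 9 and 1 at an unadjusted p below 0.05, with HK1, a hexokinase, at 29.28 and 30.82 FPKM against 17.69 and 18.14 FPKM (-0.71). Without wild-type replicate 2, H1047R replicate 1 and H1047R replicate 2, 1, 1 and 2 of these were called. WIPI1, which acts in autophagosome formation, was at 6.56 and 6.96 FPKM against 3.55 and 3.73 FPKM (-0.74), and of 33 lysosome and autophagy genes 2 were higher and 1 lower. Without wild-type replicate 2 or H1047R replicate 2, 0 of these were higher.

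Differentiation genes moved both ways. Of 14 tested enterocyte and goblet genes, 6 were lower and 2 higher, with a median of -0.22. Lower were the adhesion proteins CDH17, at 9.46 and 9.81 FPKM against 2.30 and 2.19 FPKM (log2 difference -1.71, SE 0.08), and CEACAM1, at 55.31 and 72.87 FPKM against 30.67 and 30.52 FPKM (-1.03). CEACAM6 was lower too (-0.94). PHGR1 had the widest rise. Without wild-type replicate 1 or either H1047R replicate, 1 member was higher. Of 29 matrix and epithelial to mesenchymal transition genes, 4 were lower and 3 higher. The lower ones included FN1, fibronectin, at 3.45 and 3.39 FPKM against 0.98 and 1.01 FPKM (-1.15, SE 0.10), and VIM, the mesenchymal filament vimentin, at 95.99 and 99.36 FPKM against 55.23 and 57.10 FPKM (-0.79). Without either H1047R replicate, 2 members were lower, and without H1047R replicate 1, 1 was higher.

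Of 19 tested Wnt target and stem cell genes, 4 were lower and 3 higher. DKK1, a secreted Wnt inhibitor, was at 61.13 and 58.34 FPKM against 36.56 and 34.07 FPKM (log2 difference -0.74, SE 0.07, adjusted p = 1.17e-05 in limma). LGR5, the stem cell receptor for R-spondin, was at 32.54 and 30.68 FPKM against 53.34 and 48.88 FPKM (0.68), and did not pass without any single one of the 4 libraries. MYB, a transcription factor of crypt progenitors, was called at 0.66 and missed without H1047R replicate 1 (adjusted p = 0.0525). Without wild-type replicate 1 or either H1047R replicate 1 member was higher, and without wild-type replicate 2, H1047R replicate 1 and H1047R replicate 2 the lower members numbered 2, 1 and 2.

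H1047R also differed from the other mutant line in this medium. Against E545K, 1123 genes were higher in H1047R, 8.91% of those tested, and 1410 lower, 11.2%. Higher genes made up 44.3% of these calls as deposited, 54.4% after quantile normalization, 60.7% after centring each library on its median and 33.5% after rescaling to equal sums. Most interferon genes were lower in H1047R. Of 42 tested, 36 were lower in H1047R than in E545K and 2 higher, with a median of -1.52, and 35 to 37 were lower under the 3 rescalings. IFI27, an interferon-induced mitochondrial protein, was at 35.46 and 35.36 FPKM in H1047R and 830.70 and 819.39 FPKM in E545K (log2 difference -4.50). IFI6, which protects against viral replication at the endoplasmic reticulum, differed by -4.41 and IFI44L by -4.19. The wild type lay near H1047R in these genes, at 41.58 and 37.92 FPKM for IFI27.

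Antigen presentation genes followed the same order between the mutants, with 16 of 22 lower in H1047R than in E545K and 0 higher in limma, or 17 and 0 at an unadjusted p below 0.05, and 11 to 17 lower under the rescalings. Of 30 ATF4 and unfolded protein response genes 17 were lower and 0 higher, or 20 and 0 at an unadjusted p, with 17 to 18 lower under the rescalings. On the other side, VIM was at 55.23 and 57.10 FPKM in H1047R and 5.19 and 5.66 FPKM in E545K (log2 difference 3.15). FXYD2 was listed at 0 in both E545K libraries, and LRRN4 stood there at 3.28 and 3.52 FPKM, below the wild type. CRIP1 was at 30.33 and 31.72 FPKM in E545K, above the wild type, where H1047R had 0.09 FPKM. AKR1C3, an enzyme of steroid and prostaglandin metabolism, was at 15.63 and 15.88 FPKM in H1047R and 1.06 and 1.18 FPKM in E545K (2.98). Ribosomal protein genes took 17.2% to 17.5% of the FPKM in E545K, and their part in these differences was not tested.

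Against the wild type in the same medium, E545K had 2284 genes higher, 18.1%, and 1986 lower, 15.8%. That comparison shares its wild-type libraries with the one above, so values are given side by side. EGR1 was at 10.39 and 11.34 FPKM in E545K, close to the wild type and above both H1047R libraries. HBE1 was at 1.24 and 1.89 FPKM, DUOXA2 at 15.63 and 18.75 FPKM, IL1R2 at 24.45 and 25.74 FPKM and CD74 at 47.78 and 46.47 FPKM in E545K, all on the side of H1047R. LCN2 was at 234.67 and 248.60 FPKM in E545K, above H1047R.

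The same line difference was measured in DMSO and in palbociclib with other libraries, so none is shared with conditioned medium. In DMSO 6286 genes were higher in H1047R, 49.9%, and 2206 lower, 17.5%. In palbociclib 4849 were higher, 38.5%, and 3036 lower, 24.1%. Fewer genes were thus called in conditioned medium than in either other medium. The wild-type libraries in DMSO stood apart: ribosomal protein genes took 27.0% to 27.3% of their FPKM, and their median gene was at 3.33 to 3.37 FPKM against 4.81 to 5.17 FPKM in H1047R in DMSO. The 2 H1047R libraries in palbociclib had the widest spread, with a residual SD of 0.232 against 0.0993 for H1047R in conditioned medium. How these features bear on the counts was not tested. The median difference over all genes in DMSO was 0.261 as deposited, 0.017 after quantile normalization, -0.085 after median-centring and 0.386 at equal sums.

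Of the 1056 genes called in conditioned medium, 656 were called in the same direction in DMSO (62.1%) and 165 in the opposite direction, or 99 to 139 under the rescalings. These 656 comprised 77.2% of the higher genes, beside 49.9% of all genes, and 53.4% of the lower genes, beside 17.5%. The 165 comprised 9.84% of the higher genes, beside 17.5% of all genes, and 19.0% of the lower genes, beside 49.9%. In palbociclib 746 were called in the same direction (70.6%) and 87 in the opposite one. The 746 comprised 81.6% of the higher genes, beside 38.5% of all genes, and 64.3% of the lower genes, beside 24.1%. The 87 comprised 6.22% of the higher genes, beside 24.1%, and 9.4% of the lower genes, beside 38.5%. All 3 media agreed in direction for 598 genes (56.6%), with 501 to 684 under the rescalings. These were 70.7% of the higher and 48.5% of the lower genes. HBE1, MAGEA6, OR51B5, ROBO2, FXYD2, LRRN4 and TGM3 were among them. LRRN4 was at 0.37 and 0.42 FPKM in the wild type in DMSO against 7.81 and 7.09 FPKM in H1047R, so both lines held more of it in conditioned medium. GDF15 was lower in H1047R in every medium, at 890.90 and 929.35 FPKM against 64.28 and 67.75 FPKM in DMSO.

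**Figure D3:**
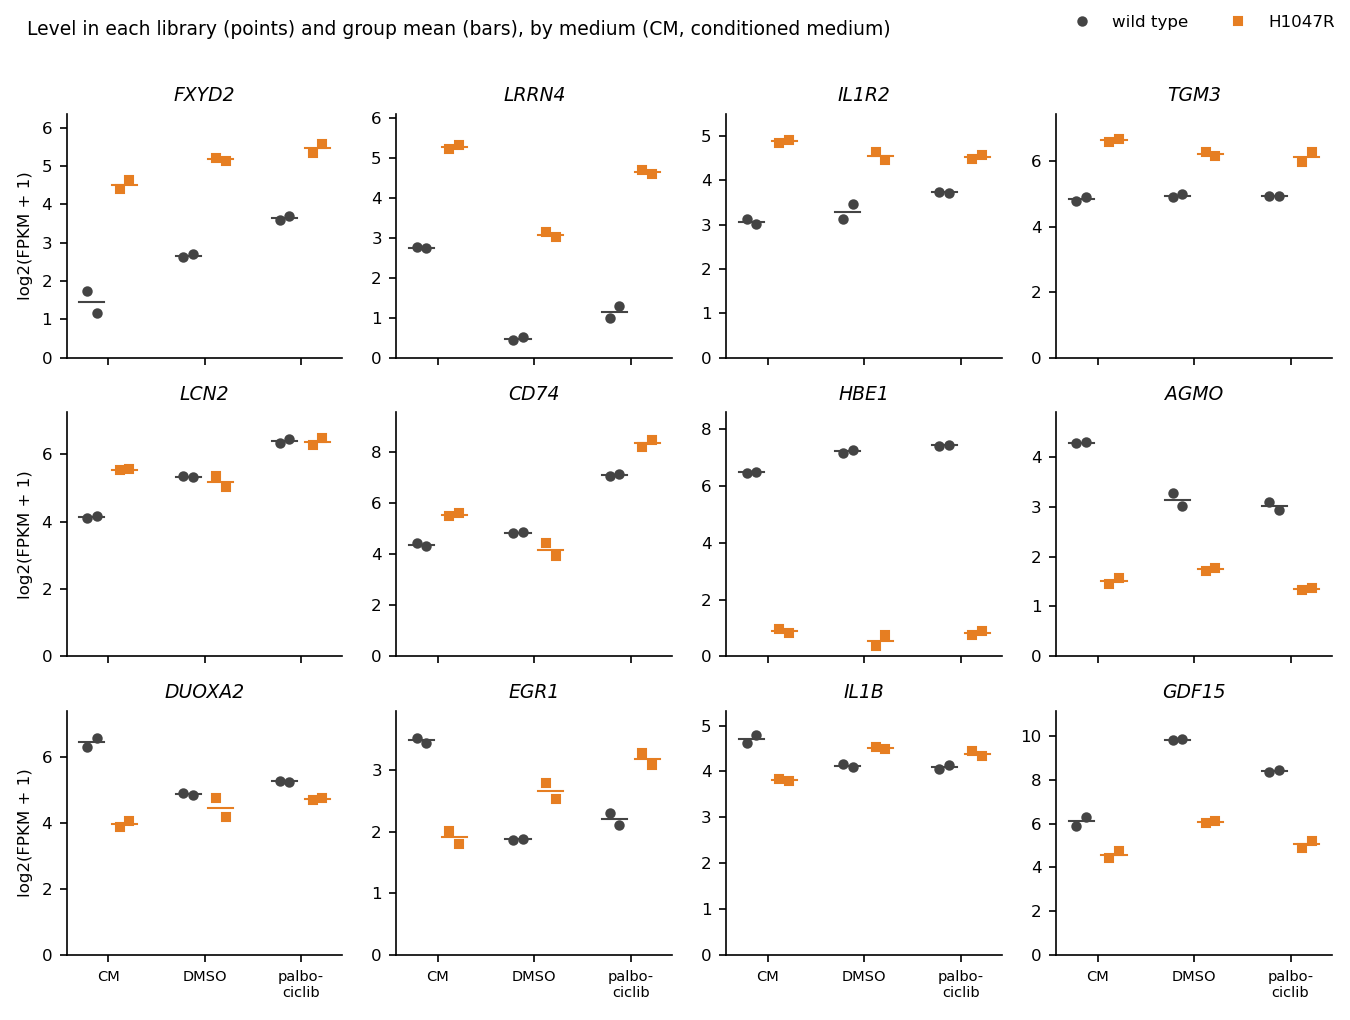
Level of 12 genes (y axes, log2(FPKM + 1)) in each library of the wild type (grey circles) and H1047R (orange squares) in conditioned medium (CM), DMSO and palbociclib (x axes), with the group mean as a bar. HBE1 and AGMO are lower in H1047R in every medium, and EGR1 and IL1B are lower in H1047R in conditioned medium and higher in both other media.

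A smaller set was called in the opposite direction in both other media, 63 genes, or 43 to 68 under the rescalings. EGR1 had the widest difference in conditioned medium among those named here. In DMSO it was at 2.66 and 2.70 FPKM in the wild type against 5.91 and 4.79 FPKM in H1047R, and in palbociclib at 3.93 and 3.34 FPKM against 8.77 and 7.47 FPKM. The change of the line difference between conditioned medium and DMSO was -2.36 (adjusted p = 8.05e-08 in limma), and between conditioned medium and palbociclib -2.55 (6.78e-08). In the wild type EGR1 was thus highest in conditioned medium, and in H1047R it was lowest there. For the genes that follow, only DMSO is shown beside conditioned medium, and their place among the 63 genes is not given. IL1B was at 16.85 and 16.08 FPKM against 22.05 and 21.32 FPKM in DMSO, also the reverse of its order in conditioned medium (-1.27, adjusted p = 6.12e-07). DKK1 was at 19.62 and 20.17 FPKM against 33.64 and 36.95 FPKM in DMSO (-1.54, adjusted p = 7.74e-08). The collagen COL3A1 was at 19.64 and 17.31 FPKM against 11.60 and 12.12 FPKM in conditioned medium and at 3.36 and 3.57 FPKM against 7.79 and 7.88 FPKM in DMSO (-1.58).

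In 201 of the 1056 genes both tests of the change were passed with the line difference in conditioned medium shifted, against both other media, toward the direction called there. These include genes whose order was reversed in the other media. Both tests contain the difference by which the 1056 genes were chosen, so a shift in the direction called is favoured by that choice. The share of all genes that passes both tests was not counted. Over all genes tested, 10.4% changed upward and 40.5% downward relative to DMSO, and 13.3% and 29.0% relative to palbociclib. Of the 201 genes 38 were higher and 163 lower in H1047R in conditioned medium. The split was 77 and 107 after quantile normalization, 64 and 85 after median-centring and 29 and 157 at equal sums, with 121, 111 and 153 genes shared with the 201. LCN2 was one of the 201 genes: it was at 39.65 and 38.69 FPKM against 39.62 and 31.52 FPKM in DMSO and at 79.77 and 86.91 FPKM against 76.09 and 87.66 FPKM in palbociclib, and was called in neither (adjusted p = 0.214 and 0.823). Its line difference changed by 1.55 between conditioned medium and DMSO and by 1.43 between conditioned medium and palbociclib. DUOXA2 was at 29.01 and 28.23 FPKM against 26.15 and 17.17 FPKM in DMSO and at 37.87 and 37.53 FPKM against 25.04 and 26.01 FPKM in palbociclib, and its difference changed by -2.07 and -1.94. IL1A, at 6.82 and 6.08 FPKM against 5.72 and 6.71 FPKM in DMSO, overlapped between lines there. The class II gene CD74 was at 27.23 and 28.35 FPKM against 20.49 and 14.29 FPKM in DMSO, where H1047R was lower, and at 134.70 and 139.75 FPKM against 297.45 and 354.33 FPKM in palbociclib, where it was higher as in conditioned medium.

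**Figure D4:**
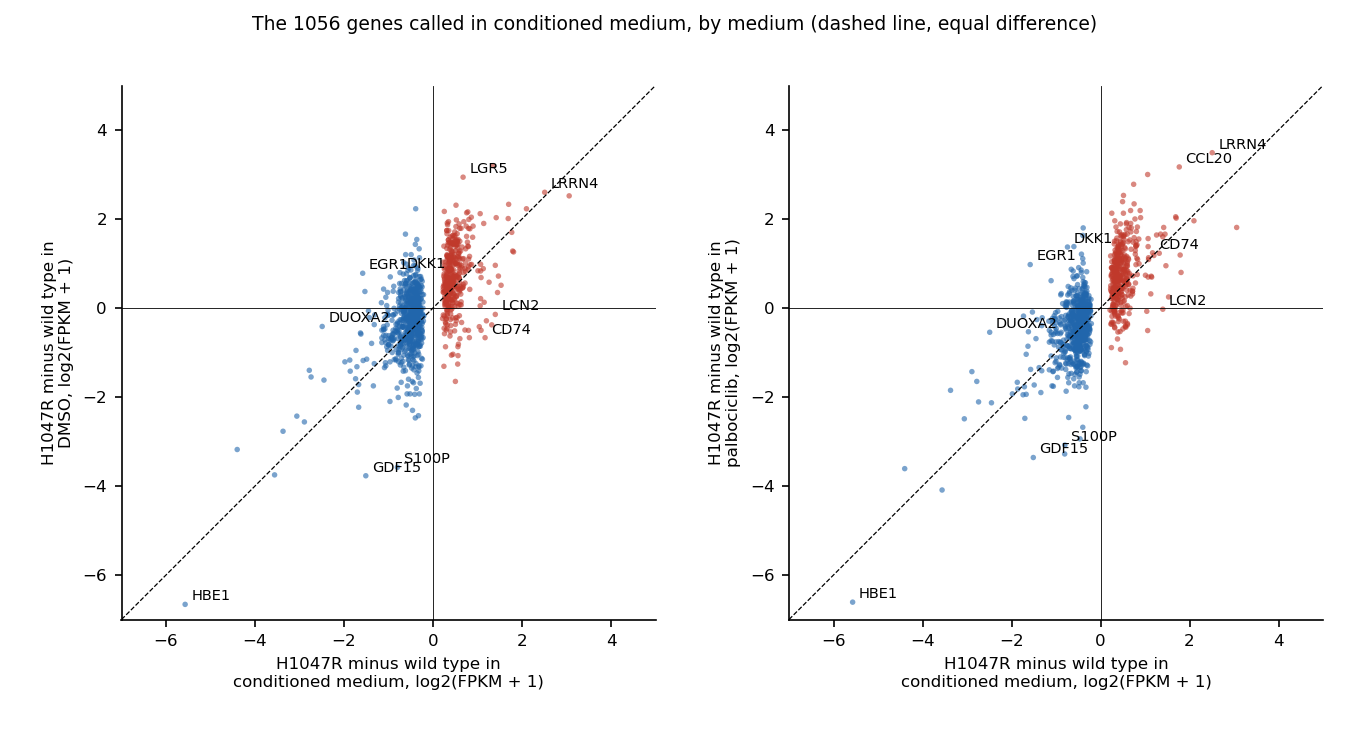
H1047R minus wild type in DMSO (left y axis) and in palbociclib (right y axis) against the same difference in conditioned medium (x axes), all in log2(FPKM + 1), for the 1056 genes called in conditioned medium. Red points were higher and blue points lower in H1047R in conditioned medium, the dashed line marks equal differences, and HBE1 lies at -5.57 in conditioned medium and -6.66 in DMSO.

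Across all genes, the line difference changed between conditioned medium and DMSO in 1313 genes upward, 10.4%, and 5109 downward, 40.5%. Upward changes were 20.4% of these calls as deposited, 48.1% after quantile normalization and 57.7% after median-centring. Between conditioned medium and palbociclib 1675 changed upward, 13.3%, and 3654 downward, 29.0%, and upward changes were 31.4%, 48.1% and 51.7% in the same order. The median change over all genes was -0.274 and -0.107. Replication genes shifted in one direction in both tests. Of 49, 37 changed downward and 0 upward in limma relative to DMSO (39 and 0 at an unadjusted p), and 34 and 0 relative to palbociclib (36 and 1), with at least 27 downward and at most 3 upward under every rescaling. Their median line difference was 0.79 in DMSO, 0.69 in palbociclib and 0.05 in conditioned medium. Ribosome biogenesis genes had medians of 0.81, 0.82 and -0.01 in the same order, and 19 and 20 of 25 changed downward. Sterol and fatty acid genes went the other way relative to DMSO, with 22 of 32 changed upward and 3 downward, and 21 to 26 upward under the rescalings. By these medians the lines lay closer together in conditioned medium for replication and ribosome biogenesis genes. This was not particular to these lists. In the same order, medians were -0.69, -0.46 and 0.06 for sterol and fatty acid genes and -0.52, -0.34 and -0.15 for p53 targets. Over all genes tested they were 0.261, 0.094 and 0.0. It did not hold for every list, as the colorectal epithelial markers had medians of 0.08, -0.03 and -0.15.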

How the data were processed

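RNA of LoVo cells, labelled as total RNA, was sequenced, and the authors deposited FPKM per gene with 1 column per library, per the file headers. HISAT2 2.1.0, Bowtie2 2.3.4.3, RSEM 1.3.1, DESeq2 1.4.5 and the build GRCh38 are named without roles, per the submitters' processing notes. No normalization between libraries is stated in the sources used here. Low values were not whole multiples of a common step (40.0% within 0.15 over 61 genes), so read numbers were not recovered, depth is unknown and no counting interval is given.

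Genes with at least 1 FPKM in at least 2 of 18 libraries were tested with limma 3.58.1 in R 4.3.3 on log2(FPKM + 1), with 1 coefficient per group over 9 groups, an intensity trend and Benjamini-Hochberg adjustment over 12607 genes, called below 0.05. A permutation test of 2 against 2 libraries cannot reach that threshold. Tests are 2-sided. Interactions were contrasts of the same fit. Named genes are the 12 highest and 12 lowest called genes (6 each in the other contrasts) whose groups do not overlap and whose higher group reaches a mean of 5 FPKM, up to 4 called members per list, and PIK3CA. Some genes named by this rule are not reported here. Further list members, neighbouring genes and genes shown across media were named after their values were seen. The comparison, the lists and the tests were chosen with earlier results of these data known. Alternatives were a pseudocount of 0.1, no filter, quantile normalization, median-centring, a TPM scale, a replicate block, a fit of the groups compared alone, leaving out each library, and 1 chosen after seeing the data. Gene positions and promoters are from RefSeq (GRCh38.p14), where 12580 tested genes had a position and 10315 a promoter of 250 bases.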

Additional observations from a re-analysis of the deposited data

Results flagged for a closer look

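The line difference itself differed between media, by the interaction test of limma, in 1313 genes upward and 5109 downward for conditioned medium minus DMSO, and in 1675 upward and 3654 downward for conditioned medium minus palbociclib. The wild-type libraries in DMSO stood apart in their ribosomal protein share (27.0% to 27.3%), and the part of this in the counts was not tested.

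Relative to DMSO, the line difference was shifted upward in IFI27 (2.79), S100P (2.78), GADD45B (2.72), JUND (2.70), PCK1 (2.52) and PIM3 (2.50). In the wild type these 6 were higher in DMSO than in conditioned medium, as for the stress gene GADD45B, at 62.71 and 66.79 FPKM against 6.12 and 7.71 FPKM. The downward shifts were in PPP1R10 (-3.13), HPS6 (-2.83), IL37 (-2.61), TASOR (-2.61), EGR1 (-2.36) and LRIF1 (-2.35). PPP1R10, a regulator of protein phosphatase 1, was at 32.09 and 32.89 FPKM in the wild type and 30.47 and 33.94 FPKM in H1047R in conditioned medium. In DMSO it was at 2.40 and 2.79 FPKM in the wild type and 31.10 and 29.00 FPKM in H1047R, so that the wild type in DMSO was the low group.

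Relative to palbociclib, the upward shifts were in IFI44L (3.04), FGFBP1 (2.71), PCK1 (2.59), ALPG (2.48), CDKN1C (2.48) and TNFSF9 (2.29). The downward shifts were in CXCL2 (-3.50), NOS2 (-3.08), PPP1R10 (-2.99), PRMT6 (-2.62), HPS6 (-2.61) and EGR1 (-2.55). CXCL2, a chemokine for neutrophils, was at 4.34 and 4.31 FPKM in the wild type and 63.74 and 74.14 FPKM in H1047R in palbociclib, against 41.08 and 29.64 FPKM and 41.17 and 39.85 FPKM in conditioned medium. Each of the 24 values passed in every alternative run for it.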

How the results depend on the processing

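No named gene called in a comparison changed sign in any alternative run for it, while PIK3CA, not called, ran from -0.0655 to 0.141. With 386 genes higher and 670 lower as reported, a fit of only the groups compared called 605 higher, and leaving the H1047R libraries in DMSO and palbociclib out of the fit, chosen after seeing the data, called 923 and 1220. Leaving out 1 library gave 150 to 203 higher and 282 to 480 lower. Against E545K, the fit of only the groups compared gave 1883 and 2429, and leaving out 1 library 630 to 703 and 826 to 883. For conditioned medium minus DMSO, quantile normalization gave 2630 and 2835 and median-centring 3257 and 2389, and leaving out 1 library 1012 to 1287 and 4409 to 5117. For conditioned medium minus palbociclib, quantile normalization gave 2634 and median-centring 2627 higher, and leaving out 1 library 1135 to 2569 higher and 3000 to 3984 lower, with 2569 without H1047R palbociclib replicate 1. The cause of these shifts was not tested. Of 125 named genes called in the comparison with the wild type, 80 were called in every alternative, as were 12 of 12 in each other comparison. Replicate numbers did not pair the libraries (36 pairs of groups, correlations of -0.561 to 0.553), and a replicate block gave 395 and 697, against E545K 1158 and 1440, and for the interactions 1331 and 5174, and 1709 and 3679. The unknown depth limits what low values show.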
